A study of Mus musculus with 24 samples.

Results

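The Twist, Hand, Msx, Snai and Zeb transcription factor genes were followed through a knockdown, rescue and retinoic acid experiment in mouse CGR8 embryonic stem cells (ESCs). The members were taken by name: Twist1, Twist2, Hand1, Hand2, Msx1, Msx2, Snai1, Snai2, Zeb1 and Zeb2, 10 genes of the 54242 symbols in the expression table. All 10 were listed in each of the 24 libraries. Tests were run on the 16447 genes whose mean log2(TPM + 1) over all libraries was at least 0.5, and 9 of the 10 members were among them. Hand2, with a mean of 0.44 on that scale, was not. TPM, a count of transcripts scaled to a fixed total per library, divides reads by transcript length, so levels may be set side by side between genes.

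The RNA-seq libraries fall into 8 groups of 3. At day 0, CGR8 cells carried a control siRNA (si-CTL) or an siRNA against Rsl24d1 (si-Rsl24d1), a factor that helps build the large ribosomal subunit. At day 4, cells of both kinds had been treated with 10 nM retinoic acid (RA), which drives ESCs to differentiate. The sample labels give serum with LIF at day 0 and serum with RA at day 4. Each of these 4 conditions was made without rescue, with an empty vector, and with rescue, in which a line selected with puromycin expressed ectopic RSL24D1 under doxycycline. Vector and doxycycline always went together, so their effects cannot be told apart, and the labels name no independent clones. The design text calls the triplicates independent without saying from which culture each came, so p-values measure the spread between these libraries.

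TWIST and HAND proteins are basic helix-loop-helix (bHLH) factors that bind DNA as dimers, often with E proteins, and Id proteins take those E proteins away from them. MSX proteins are homeobox factors, mostly repressors, and textbook targets of BMP signals. SNAI zinc-finger proteins and ZEB zinc-finger and homeodomain proteins bind E-boxes and repress epithelial genes such as Cdh1, which encodes E-cadherin. Together these families are best known from the epithelial to mesenchymal transition, gastrulation and the neural crest, and HAND1 also from trophoblast, extraembryonic mesoderm and heart.

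The siRNA target was checked first. Rsl24d1 stood at 148, 140 and 136 TPM in the si-CTL libraries of day 0 and at 36.6, 37.9 and 32.7 TPM in the si-Rsl24d1 libraries, a ratio of the means of 0.253. With rescue at day 0, the si-CTL libraries lay between 147 and 158 TPM and the si-Rsl24d1 libraries between 96.1 and 121 TPM. At day 4 without rescue the target was not lower by the test: 95.9, 101 and 96.7 TPM with si-CTL against 89.3, 96.3 and 99.8 TPM with si-Rsl24d1 (log2 difference −0.04, limma adjusted p = 0.66). With rescue at day 4 the values were 114 to 126 TPM against 127 to 134 TPM (difference 0.15, adjusted p = 0.19). The day 4 groups are therefore written as the libraries labelled si-Rsl24d1, since Rsl24d1 mRNA does not tell them from their controls, and every direction given for the siRNA at day 4 rests on the labels. The gene symbol does not separate the endogenous from the ectopic transcript. Between 23415 and 26428 symbols were above 0 in a library, and read depth is unknown.

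Of the 10 members, 7 had a RefSeq promoter window (build GRCm38.p6). The windows of 4 are shown because Twist1 had the largest siRNA differences of the tested members, Hand2 went from near 0 to a measurable level, Twist2 is the close relative of Twist1 that passed no test, and Snai1 is a known binder of E-boxes that carries one itself. Each run is the 250 bases before the annotated start, 5′ to 3′ on the gene's own strand (all plus). The windows are chr12:33957421-33957670 for Twist1, chr1:91801211-91801460 for Twist2, chr8:57320733-57320982 for Hand2 and chr2:167537945-167538194 for Snai1. Capitals mark CANNTG (the E-box), TATAAA and CCAAT, or their reverse complements.
Twist1: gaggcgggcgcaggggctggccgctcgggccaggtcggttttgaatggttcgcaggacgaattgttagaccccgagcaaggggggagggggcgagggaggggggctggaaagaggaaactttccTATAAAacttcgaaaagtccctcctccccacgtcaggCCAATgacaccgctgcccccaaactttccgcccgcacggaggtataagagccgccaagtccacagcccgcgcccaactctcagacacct
Twist2: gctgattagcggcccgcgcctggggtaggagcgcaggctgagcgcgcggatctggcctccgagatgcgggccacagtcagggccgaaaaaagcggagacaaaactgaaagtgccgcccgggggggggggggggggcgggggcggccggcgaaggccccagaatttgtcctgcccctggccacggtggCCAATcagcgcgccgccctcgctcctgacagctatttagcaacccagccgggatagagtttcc
Hand2: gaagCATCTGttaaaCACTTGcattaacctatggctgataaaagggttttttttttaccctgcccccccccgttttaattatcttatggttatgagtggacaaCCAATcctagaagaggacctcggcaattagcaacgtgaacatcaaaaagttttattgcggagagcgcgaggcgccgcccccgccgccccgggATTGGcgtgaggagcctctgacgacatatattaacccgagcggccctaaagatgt
Snai1: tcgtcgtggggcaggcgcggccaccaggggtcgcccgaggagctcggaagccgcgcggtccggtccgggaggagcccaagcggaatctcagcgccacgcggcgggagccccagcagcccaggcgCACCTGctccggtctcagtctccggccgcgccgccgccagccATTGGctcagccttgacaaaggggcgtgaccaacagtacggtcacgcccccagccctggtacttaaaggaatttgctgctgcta
The Twist1 window held TATAAA and CCAAT and no CANNTG, and the Twist2 window held CCAAT alone. The Hand2 window held CANNTG at 2 places and the CCAAT letters at 2, one on each strand. In the Snai1 window there was 1 CANNTG, spelled CACCTG, and 1 ATTGG. Over the 32851 RefSeq windows of mouse genes, CANNTG occurred in 66.2%, CCAAT in 33.9% and TATAAA in 12.4%, each on either strand. AGGTCA, the half-site letters of retinoic acid receptors, occurred in 14.0% of all windows and in none of the 4. These 4 windows were rich in CpG, with 18 for Twist1, 23 for Twist2, 15 for Hand2 and 27 for Snai1, against a median of 6 over all windows. The matches describe letters only.

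The siRNA comparison asks whether these genes differ between si-Rsl24d1 and si-CTL libraries at day 0 and after RA. At day 4 it rests on the labels, since Rsl24d1 mRNA was not lower there by the test. The planned call rule, here the stricter rule, was a limma adjusted p under 0.01 with a change of more than 1.8-fold, which is 0.85 on the log2(TPM + 1) scale. "Rose" and "fell" mean an adjusted p under 0.01 alone, a looser rule added after the values had been seen. At day 0 without rescue, 4 of 9 members rose (Twist1, Hand1, Msx2, Snai2) and none fell, where 30.4% of all tested genes changed. At day 4 without rescue, 6 of 9 rose (Twist1, Hand1, Msx2, Snai1, Snai2, Zeb2) in the libraries labelled si-Rsl24d1 and none fell, where the background was 30.9%. By the stricter rule the count was 1 of 9 at day 0 (Twist1) against 4.18% of all genes. It was 3 of 9 at day 4 (Twist1, Hand1, Zeb2) against 1.63%.

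The median difference over the 9 members was 0.22 at day 0 and 0.78 at day 4, beside −0.01 and 0.13 over all tested genes. Scaling the libraries by the median of ratios took the latter shift away. The day 4 differences then were 1.37 for Twist1, 0.99 for Hand1, 0.80 for Zeb2, 0.68 for Snai2 and 0.65 for Msx2, so that Zeb2 no longer passed the stricter rule. With rescue, the siRNA contrast of day 0 had 3 members that rose (Twist1, Hand1, Msx2) against a background of 13.7%, and that of day 4 had 2 (Twist1, Hand1) against 5.87%. By the stricter rule no member passed in either, against 1.36% and 0.730% of all genes, while at an unadjusted p under 0.05 the same limma fits gave 4 members higher at day 0, and 4 higher and 1 lower at day 4. The members' medians with rescue were 0.183 at day 0 and 0.185 at day 4, beside all-gene medians of 0.01 and −0.04. Fewer cells of a type and less RNA per cell cannot be told apart in bulk libraries, here and in every result that follows.

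**Figure D1:**
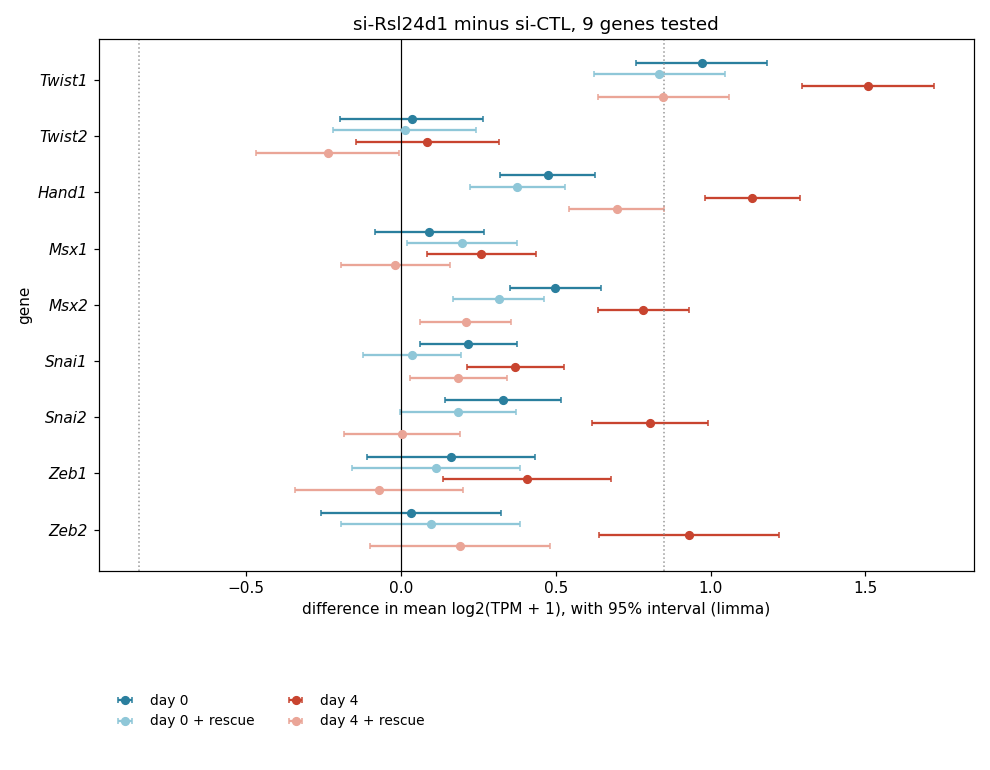
Difference in log2(TPM + 1) between si-Rsl24d1 and si-CTL libraries for each tested member at day 0 and day 4, without and with rescue; points are limma estimates over 3 libraries a group and bars their 95% intervals, with dotted lines at the 1.8-fold limit. Twist1 and Hand1 lie above 0 in all 4 comparisons, and at day 4 without rescue Twist1 reaches 1.51 and Hand1 1.13.

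Twist1, at chr12:33957671-33959829 (GRCm38, plus strand), encodes a bHLH factor of head mesenchyme and the neural crest. It stood at 1.53, 2.10 and 1.67 TPM with si-CTL at day 0 and at 3.90, 4.32 and 5.03 TPM with si-Rsl24d1. At day 4 it stood at 3.83, 4.29 and 3.41 TPM with si-CTL and at 11.3, 13.1 and 13.9 TPM in the libraries labelled si-Rsl24d1. Every si-Rsl24d1 library was above every control of its day, and the day 0 knockdown libraries already overlapped the si-CTL libraries of day 4. The siRNA difference was 0.97 ± 0.10 (SE, n = 3 a group, limma adjusted p = 2e-07) at day 0, a ratio of mean TPM of 2.50. At day 4 it was 1.51 ± 0.10 (adjusted p = 2.5e-09), a ratio of 3.33.

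With rescue the Twist1 values were 1.60, 1.66 and 1.51 TPM against 3.52, 4.03 and 3.32 TPM at day 0. At day 4 they were 4.37, 3.83 and 4.30 TPM against 7.45, 8.23 and 9.25 TPM. The groups again did not overlap, with differences of 0.83 (adjusted p = 4.6e-06) and 0.85 (adjusted p = 1.3e-05). The day 4 value lay just under the 1.8-fold limit of the log2(TPM + 1) scale (0.848), where the group means were 4.17 and 8.31 TPM. It passed that limit without si-CTL with rescue replicate 1 (0.88) or 3 (0.87), and without si-Rsl24d1 with rescue replicate 1 (0.91) or 2 (0.85).

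Twist2, at chr1:91801461-91848028 (plus strand), encodes the dermis-expressed relative of TWIST1, and it passed neither rule in any comparison. Its libraries stayed between 1.01 and 2.33 TPM. At day 4 without rescue it stood at 2.13, 1.79 and 1.89 TPM with si-CTL and at 2.10, 2.33 and 1.92 TPM in the libraries labelled si-Rsl24d1. These overlap, and the difference was 0.08 (95% interval −0.15 to 0.32, adjusted p = 0.56). With rescue at day 4 all 3 labelled si-Rsl24d1 libraries (none above 1.64 TPM) were below the 3 controls (1.86 to 2.01 TPM), a difference of −0.24 that did not pass (adjusted p = 0.18).

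The gap between the Twist paralogues was taken within each library. Twist1 minus Twist2 on the log2 scale was larger with the siRNA by 0.94 at day 0, 0.82 at day 0 with rescue, 1.42 at day 4 and 1.08 at day 4 with rescue, with no overlap of the groups in any of the 4. An exact two-sided permutation test of 3 against 3 gave p = 0.1 each time, the smallest it can give. This is one family of 20 such comparisons over 5 paralogue pairs, none of which could pass 0.05.

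Hand1, at chr11:57828705-57832818 (minus strand), encodes a bHLH factor of trophoblast giant cells, lateral mesoderm and heart, and it was the highest member by TPM in all 8 groups. At day 0 it stood at 13.5, 14.9 and 13.7 TPM with si-CTL and at 20.2, 19.0 and 20.4 TPM with si-Rsl24d1. At day 4 it stood at 7.23, 7.65 and 7.74 TPM with si-CTL and at 16.6, 19.8 and 17.0 TPM in the libraries labelled si-Rsl24d1. The controls fell over 4 days of RA while the labelled si-Rsl24d1 libraries of day 4 overlapped the si-Rsl24d1 libraries of day 0. The siRNA difference was 0.47 ± 0.07 at day 0 (adjusted p = 2.9e-05) and 1.13 ± 0.07 at day 4 (adjusted p = 1.5e-09), ratios of 1.42 and 2.36. With rescue it was 0.38 (adjusted p = 8.3e-04; 12.5 to 13.4 TPM against 16.6 to 17.3 TPM) and 0.70 (adjusted p = 2.4e-06; 7.86 to 8.69 TPM against 12.3 to 15.5 TPM).

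Hand2, at chr8:57320983-57324633 (plus strand), encodes the partner factor of the second heart field and limb. It was listed at 0 in 2 of 3 si-CTL libraries at day 0, with 0.019 TPM in the other, and at 0 in all 3 with rescue. The si-Rsl24d1 libraries of day 0 held 0.0318, 0.0477 and 0.108 TPM. At day 4 it stood at 0.615, 0.549 and 0.356 TPM with si-CTL, at 1.75, 1.57 and 1.54 TPM in the libraries labelled si-Rsl24d1, at 0.429, 0.404 and 0.471 TPM with si-CTL and rescue, and at 0.760, 0.912 and 0.665 TPM with both. Those 2 siRNA groups of day 4 lay above their controls with no overlap. Hand2 missed the filter. In a fit of all genes with no filter the day 4 siRNA difference was 0.80 (adjusted p = 2.1e-08) without rescue and 0.31 (adjusted p = 0.0027) with it. The antisense gene Hand2os1, whose exons the Hand2 window overlaps, had group means of 0 to 0.54 on the log2 scale, 0.04 with si-CTL and 0.54 in the libraries labelled si-Rsl24d1 at day 4. The sources differ on whether the kit keeps strand, so the share of antisense reads in Hand2 was not tested.

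Msx2, at chr13:53466884-53473074 (minus strand), is a skull and limb homeobox gene. Its levels were 1.20, 1.22 and 1.37 TPM with si-CTL and 2.08, 2.17 and 2.36 TPM with si-Rsl24d1 at day 0. At day 4 they were 3.05, 2.69 and 2.67 TPM with si-CTL and 5.57, 5.48 and 5.57 TPM in the libraries labelled si-Rsl24d1. Neither pair of groups overlapped, and the day 4 siRNA group was the tightest of all the Msx2 groups, with an SD of 0.0526 TPM. The differences were 0.50 ± 0.07 (adjusted p = 9.3e-06) and 0.78 ± 0.07 (adjusted p = 1.1e-07). With rescue Msx2 rose by 0.31 at day 0 (adjusted p = 0.0026), and at day 4 the difference of 0.21 did not pass (adjusted p = 0.057; 2.66 to 3.16 TPM against 3.42 to 3.95 TPM, no overlap). The rise with rescue at day 0 did not pass without si-CTL with rescue replicate 2 (0.27, adjusted p = 0.020) or 3 (0.31, adjusted p = 0.011), or without si-Rsl24d1 with rescue replicate 1 (0.31, adjusted p = 0.010) or 2 (0.31, adjusted p = 0.011).

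Msx1, at chr5:37820485-37824583 (minus strand), is the tooth and palate member of the same family. It stayed low, between 0.576 and 1.31 TPM over the 24 libraries. At day 4 without rescue its si-CTL libraries held 0.576, 0.676 and 0.745 TPM and the libraries labelled si-Rsl24d1 0.880, 1.12 and 0.986 TPM. They did not overlap, but the difference of 0.26 did not pass (adjusted p = 0.018). The differences of the other 3 siRNA comparisons ran from −0.02 to 0.20.

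Snai2, at chr16:14705852-14709385 (plus strand), encodes SLUG, a repressor of E-cadherin and a neural crest factor. It stood at 0.728, 0.875 and 0.713 TPM with si-CTL and 1.56, 1.14 and 1.01 TPM with si-Rsl24d1 at day 0. At day 4 it stood at 2.32, 1.97 and 2.35 TPM with si-CTL and at 4.68, 4.45 and 4.69 TPM in the libraries labelled si-Rsl24d1. Both pairs were apart, by 0.33 ± 0.09 (adjusted p = 0.0057) and 0.80 ± 0.09 (adjusted p = 1.6e-06). The day 0 call did not hold without si-CTL replicate 1 (0.31, adjusted p = 0.022) or 3 (0.31, adjusted p = 0.024), or without si-Rsl24d1 replicate 1 (0.23, adjusted p = 0.051). With rescue Snai2 stood at 2.74, 2.89 and 3.02 TPM against 3.13, 2.77 and 2.79 TPM at day 4, a difference of 0.00 (95% interval −0.18 to 0.19).

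Snai1, at chr2:167538195-167542814 (plus strand), encodes SNAIL, which acts at gastrulation. It moved the least of the members that passed at day 4. Its si-CTL libraries held 3.44, 3.39 and 3.67 TPM and the libraries labelled si-Rsl24d1 4.65, 5.05 and 4.72 TPM, with no overlap and a difference of 0.37 ± 0.08 (adjusted p = 7.2e-04). After scaling by the median of ratios it was 0.24 and did not pass (adjusted p = 0.014). At day 0 the values were 3.29, 3.13 and 3.20 TPM against 4.15, 3.69 and 3.83 TPM, apart but short of the threshold (0.22, adjusted p = 0.026).

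Zeb2, at chr2:44983632-45117395 (minus strand), encodes a SMAD-binding repressor of neural crest and neural tissue. At day 0 the siRNA groups overlapped: 2.67, 2.36 and 1.76 TPM with si-CTL and 2.49, 2.47 and 2.00 TPM with si-Rsl24d1 (difference 0.03, 95% interval −0.26 to 0.32). At day 4 they were apart, with 2.21, 2.28 and 2.46 TPM in si-CTL and 4.00, 6.07 and 6.13 TPM in the libraries labelled si-Rsl24d1. The day 4 difference was 0.93 ± 0.14 (adjusted p = 4.3e-05), a ratio of 2.33. It fell to the fold limit or under it without si-Rsl24d1 replicate 2 (0.85) or 3 (0.84), both at an adjusted p of 5.4e-04 or lower. With rescue the day 4 groups overlapped, at 3.96, 2.66 and 3.38 TPM against 3.45, 3.99 and 4.31 TPM (0.19, adjusted p = 0.44). The antisense gene Zeb2os had a group mean of 0.34 with si-CTL and 0.50 in the libraries labelled si-Rsl24d1 at day 4 on the log2 scale, and its part in the Zeb2 value was not tested.

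Zeb1, on chromosome 18 (plus strand), is the other ZEB gene and showed no siRNA change by the test. At day 4 its si-CTL libraries held 4.68, 5.35 and 6.04 TPM and the libraries labelled si-Rsl24d1 5.85, 8.09 and 8.49 TPM. Replicate 1 of the latter lay inside the control range, as replicate 1 was also the lowest for Zeb2, and the difference of 0.41 did not pass (adjusted p = 0.016). At day 0 it was 0.16 (adjusted p = 0.35). The difference between Zeb1 and Zeb2 within a library moved with the siRNA by −0.52 at day 4 (exact two-sided permutation p = 0.1, the smallest possible) and by 0.13 at day 0 (p = 0.2).

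RA was compared with day 0 within each of the 4 siRNA and rescue conditions; these comparisons use the same libraries as the siRNA comparisons. In si-CTL cells without rescue, 4 of 9 members rose (Twist1, Msx2, Snai2, Zeb1) and Hand1 fell, where 60.9% of all tested genes changed. A share of 5 in 9 is thus near the background. By the stricter rule the count was 2 (Snai2, Zeb1) against 15.0%. With si-CTL and rescue, 5 rose (the same 4 and Zeb2) and Hand1 fell, against 59.2%, and 4 passed the stricter rule (Twist1, Msx2, Snai2, Zeb1) against 15.6%.

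In the si-Rsl24d1 conditions, 6 rose without rescue (Twist1, Msx2, Snai1, Snai2, Zeb1, Zeb2) against 55.8%. With rescue 5 rose, these less Snai1, and Hand1 and Msx1 fell, against 58.1%. By the stricter rule the counts were 5 (Twist1, Msx2, Snai2, Zeb1, Zeb2) against 14.1% without rescue and 4 (Twist1, Snai2, Zeb1, Zeb2) against 14.9% with rescue. The medians over the members were 0.23 and 0.76 in si-CTL without and with rescue, and 0.93 and 0.79 in si-Rsl24d1, with all-gene medians from −0.10 to 0.12.

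Zeb1 had the largest RA difference of any member in si-CTL cells, from 2.52, 1.74 and 1.60 TPM to 4.68, 5.35 and 6.04 TPM (1.11, adjusted p = 2.5e-07). In the other 3 conditions its difference was between 1.36 and 1.64. Snai2 rose by 0.86 in si-CTL and by 1.33 in si-Rsl24d1 cells. Hand1 is the only member that fell by the adjusted p in si-CTL cells, by 0.82 without rescue (adjusted p = 7.1e-09) and by 0.55 with it (adjusted p = 1.5e-06). In si-Rsl24d1 cells its difference was −0.15 (95% interval −0.31 to 0.00, adjusted p = 0.071). Msx1 was also lower in si-CTL without rescue, at 0.576 to 0.745 TPM against 0.887 to 1.11 TPM at day 0. These groups did not overlap, but its difference of −0.24 did not pass. Zeb2 differed by 0.03 in si-CTL (adjusted p = 0.84), by 0.93 in si-Rsl24d1, and by 0.76 and 0.86 in the 2 conditions with rescue. Twist2 passed in none of the 4, with differences of −0.07 to 0.29.

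Some of these calls rest on single libraries. Snai2 in si-CTL missed the fold limit without day 0 replicate 1 (0.84) or 3 (0.83), or day 4 replicate 1 (0.83) or 3 (0.83). Twist1 there, at 0.81, passed it without day 0 replicate 2 (0.89) or day 4 replicate 3 (0.88). With si-CTL and rescue, Msx2 missed it without day 0 replicate 2 (0.84), and Zeb2 gained it without day 4 replicate 2 (0.88). In si-Rsl24d1, Zeb2 missed it without day 4 replicate 3 (0.84), and Snai1 lost its adjusted p without any of 4 libraries, day 0 replicate 2 or 3 or day 4 replicate 2 or 3 (adjusted p from 0.014 to 0.033), and after scaling (0.23, adjusted p = 0.010). With si-Rsl24d1 and rescue, Hand1 fell by 0.23 (adjusted p = 0.0087), and lost the call without any 1 of the day 0 libraries or day 4 replicate 3 (adjusted p from 0.017 to 0.087). Msx1 fell by 0.33 (adjusted p = 0.0020), and lost it without day 0 replicate 3 (adjusted p = 0.015) or day 4 replicate 3 (adjusted p = 0.016).

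**Figure D2:**
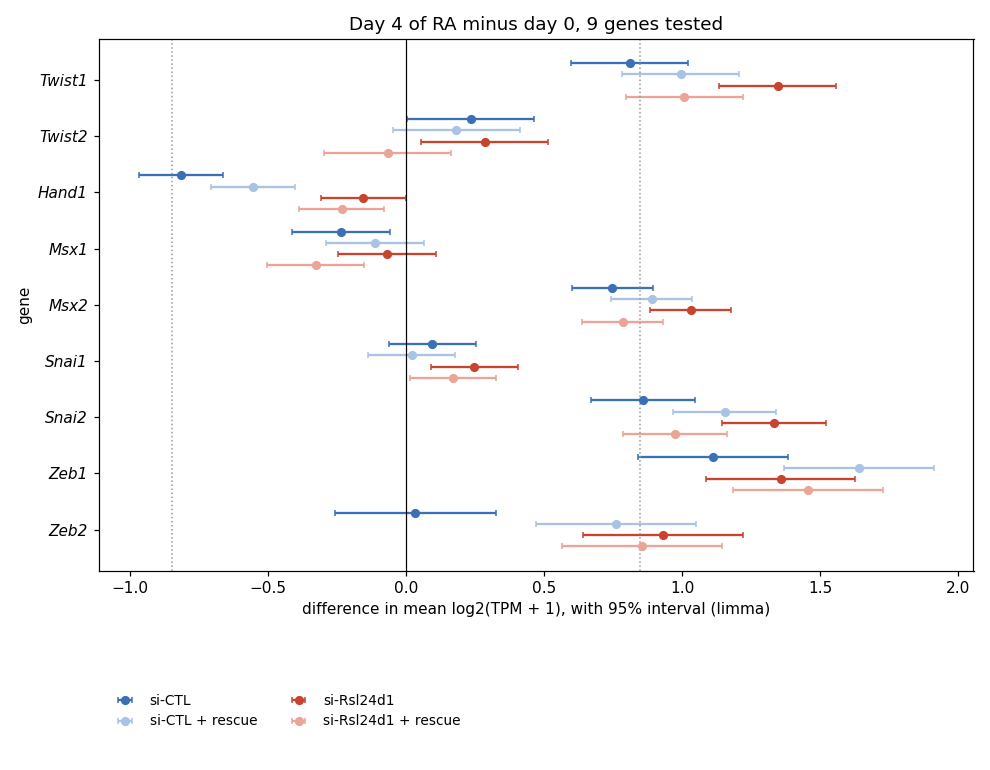
Difference in log2(TPM + 1) between day 4 of RA and day 0 for each tested member in the 4 siRNA and rescue conditions; points are limma estimates over 3 libraries a group and bars their 95% intervals. The Hand1 estimate is below 0 in all 4, furthest in both si-CTL conditions, and Zeb1 lies between 1.11 and 1.64 in all 4.

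The interaction of siRNA and day tests whether the siRNA difference at day 4 exceeded that at day 0, without rescue. It was larger at day 4 for 4 of 9 members (Twist1 0.54, Hand1 0.66, Snai2 0.47, Zeb2 0.90), against 30.9% of all genes that changed either way, and 1 of 9 (Zeb2) passed the stricter rule against 5.61%. The adjusted p was 0.0052 for Twist1, 5e-05 for Hand1, 0.0052 for Snai2 and 0.0012 for Zeb2. For Hand1 the groups behind it move apart: controls fell under RA and the labelled si-Rsl24d1 libraries did not by the test. For Zeb2 only the day 4 siRNA groups were apart. The median over the members was 0.28, beside 0.14 over all genes.

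After scaling, Twist1 (0.41, adjusted p = 0.032) and Snai2 (0.36, adjusted p = 0.025) no longer passed the interaction test, nor did they with a pseudocount of 0.1 (0.43, adjusted p = 0.056, and 0.43, adjusted p = 0.13). Twist1 also lost it without day 0 si-CTL replicate 2, day 0 si-Rsl24d1 replicate 1 or 2, day 4 si-CTL replicate 1 or 3, or day 4 si-Rsl24d1 replicate 2 or 3 (0.45 to 0.54, adjusted p from 0.011 to 0.018). Snai2 lost it without day 0 si-CTL replicate 2, day 0 si-Rsl24d1 replicate 2 or 3, day 4 si-CTL replicate 2 or day 4 si-Rsl24d1 replicate 3 (0.40 to 0.46, adjusted p from 0.013 to 0.019). Zeb2 missed the fold limit without day 0 si-CTL replicate 1 (0.81), day 0 si-Rsl24d1 replicate 3 (0.82) or day 4 si-Rsl24d1 replicate 2 (0.81) or 3 (0.81).

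Rescue was compared with no rescue within each siRNA and day, to ask which siRNA differences shrink when RSL24D1 is supplied. These comparisons use the libraries of the siRNA comparisons again. In si-Rsl24d1 cells at day 0, Msx2 fell by 0.26 (2.08, 2.17 and 2.36 TPM to 1.68, 1.69 and 1.63 TPM, adjusted p = 0.0093), and no other member passed, against a background of 15.3%. That call did not hold without any one of the 6 libraries (adjusted p from 0.017 to 0.040) or after scaling (−0.18, adjusted p = 0.091). At day 4, 3 of 9 fell in the libraries labelled si-Rsl24d1 (Twist1, Msx2, Snai2), against 5.17%. All 9 differences there were negative, with a median of −0.33 beside −0.07 over all genes. The stricter rule called no member at either day, against 0.280% and 0.0851% of all genes, while at an unadjusted p under 0.05 limma gave 4 members lower at day 0 and 8 at day 4.

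At day 4, Twist1 went from 11.3, 13.1 and 13.9 TPM without rescue to 7.45, 8.23 and 9.25 TPM with it (−0.57, adjusted p = 0.0012). Msx2 went from 5.57, 5.48 and 5.57 to 3.42, 3.95 and 3.43 TPM (−0.51, adjusted p = 1e-04). Snai2 went from 4.68, 4.45 and 4.69 to 3.13, 2.77 and 2.79 TPM (−0.53, adjusted p = 7.9e-04), a call that a pseudocount of 0.1 did not keep (−0.65, adjusted p = 0.012). All 3 groups with rescue lay below all libraries without it. Hand1, at 16.6 to 19.8 against 12.3 to 15.5 TPM, was also apart but missed the threshold (−0.30, adjusted p = 0.011). In the unfiltered fit Hand2 fell by 0.56 (adjusted p = 1.3e-05).

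In si-CTL cells the comparison of rescue with no rescue mixes vector, doxycycline and ectopic RSL24D1, which cannot be told apart. Mean Rsl24d1 was 151 TPM with rescue and 141 TPM without it at day 0, and 118 and 97.9 TPM at day 4. No member passed in this comparison at day 0 (0 of 9, against 0.0122% of all genes) or at day 4 (0 of 9, against 10.2%). By the stricter rule the shares of all genes were 0% and 0.0547%, and no member passed. At an unadjusted p under 0.05, limma gave 1 member lower at day 0 (Zeb2, −0.35) and 3 higher at day 4 (Snai2 0.28, Zeb1 0.33, Zeb2 0.37). At day 4 the si-CTL groups of Snai2 did not overlap (1.97 to 2.35 TPM without rescue, 2.74 to 3.02 TPM with it), nor did those of Zeb2 (2.21 to 2.46 and 2.66 to 3.96 TPM). Zeb1 (4.68 to 6.04 and 6.44 to 7.69 TPM) and Hand1 (7.23 to 7.74 and 7.86 to 8.69 TPM) were also apart, which made 4 members higher with rescue. At day 0 Hand1 (13.5 to 14.9 and 12.5 to 13.4 TPM) and Zeb2 (1.76 to 2.67 and 1.44 to 1.66 TPM) were apart and lower with rescue.

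The difference of the siRNA effects with and without rescue was tested as an interaction. At day 0 no member passed either rule, against 2.09% of all genes by adjusted p and 0.128% by the stricter rule, and none had an unadjusted p under 0.05 in limma. Differences ran from −0.18 to 0.11. At day 4 the test was added after the values had been seen. There the siRNA effect was smaller with rescue for 4 of 9 members (Twist1 −0.66, Hand1 −0.44, Msx2 −0.57, Snai2 −0.80), against 8.95% of all genes in either direction, with adjusted p-values of 0.0048, 0.0070, 0.0015 and 8.4e-04. By the stricter rule none passed, against 0.511%, and at an unadjusted p under 0.05 limma gave 7 members.

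The all-gene median of that contrast was −0.17, and after scaling Snai2 alone still passed, with Msx2 at −0.41 (adjusted p = 0.017), Twist1 at −0.48 (0.032) and Hand1 at −0.25 (0.12). Twist1 lost its call without any of 8 single libraries, namely si-CTL replicate 1 or 3, si-Rsl24d1 replicate 2 or 3, si-CTL with rescue replicate 1 or 3, or si-Rsl24d1 with rescue replicate 1 or 2 (−0.59 to −0.66, adjusted p from 0.011 to 0.017). Hand1 lost it without any of 9, namely si-CTL replicate 1 or 2, si-Rsl24d1 replicate 2 or 3, si-CTL with rescue replicate 1, 2 or 3, or si-Rsl24d1 with rescue replicate 2 or 3 (−0.34 to −0.48, adjusted p from 0.011 to 0.026).

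**Figure D3:**
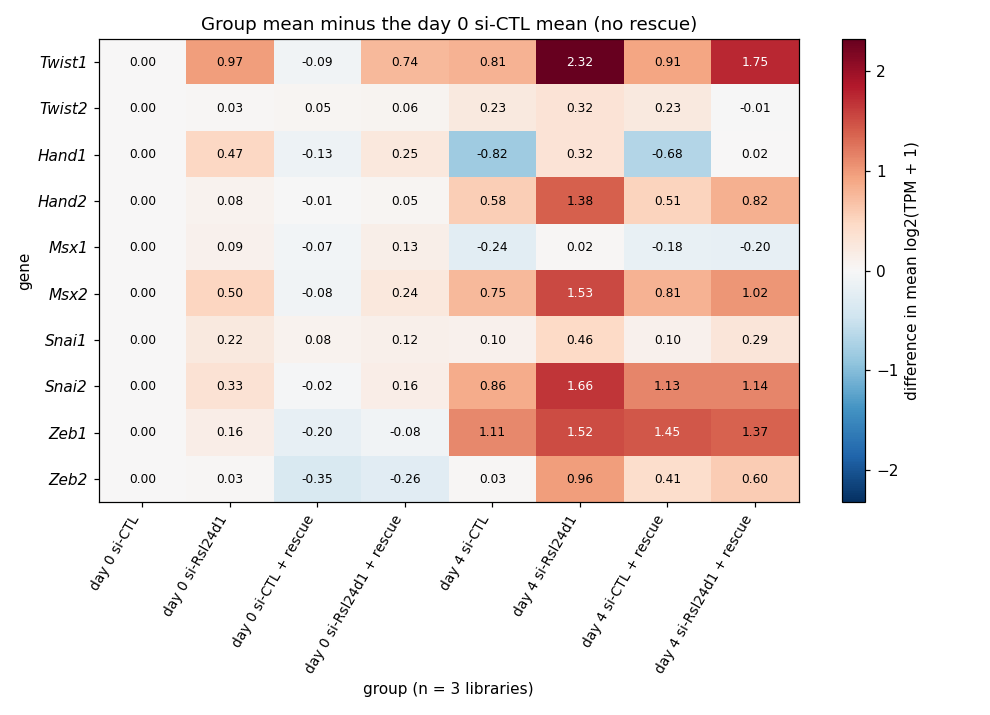
Difference of each group's mean log2(TPM + 1) from the si-CTL mean at day 0 without rescue, for the 10 members (rows) and 8 groups (columns), with the value written in each cell. The column of the libraries labelled si-Rsl24d1 at day 4 holds the highest value for Twist1, Twist2, Hand2, Msx2, Snai1, Snai2, Zeb1 and Zeb2, and Hand1 is negative in both si-CTL columns of day 4.

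By TPM the order of the members changed between groups. In si-CTL cells at day 0 it was Hand1, Snai1, Zeb2, Zeb1, Twist1, Twist2, Msx2, Msx1, Snai2 and Hand2. Both ends stood far from their neighbours, Hand1 with a mean of 14.0 TPM against 3.21 for Snai1, and Hand2 with 0.0063 against 0.772 for Snai2. In the libraries labelled si-Rsl24d1 at day 4 it was Hand1, Twist1, Zeb1, Msx2, Zeb2, Snai1, Snai2, Twist2, Hand2 and Msx1. Twist1 thus stood at the fifth place in the first and next to Hand1 in the second. Over the 24 libraries, which share groups, library sizes and conditions, the closest pair of members was Msx2 and Snai2 (Pearson r = 0.96), then Snai2 and Zeb1 (0.94) and Twist1 and Msx2 (0.94). Paralogues ran from 0.86 for Zeb1 and Zeb2 and 0.68 for Snai1 and Snai2 to 0.35 for Twist1 and Twist2 and −0.26 for Msx1 and Msx2.

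Among all tested genes over the same 24 libraries, the nearest in pattern were H1f0 (r = 0.97) and Edn1 (0.96) to Twist1, Nrg1 (0.93) and Lpar4 (0.93) to Hand1, and Parm1 (0.99) and Ppp2r2b (0.98) to Msx2. Plat (0.99) and Fbln2 (0.98) were nearest to Snai2, Dusp8 (0.87) and Cpe (0.85) to Snai1, Plekhh1 (0.99) and Ube2h (0.99) to Zeb1, and Tln1 (0.97) and Daam1 (0.97) to Zeb2. For Twist2 (Gm19196 0.73, Shd 0.72) and Msx1 (Zfp125 0.85, Trim8 0.84) the likeness was lower. These values are descriptions.

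The other genes of the pathway were read from lists, beside the share of all tested genes that changed in the same contrast. At day 4 without rescue, 16 of 22 mesenchymal effectors (matrix, adhesion and cytoskeleton genes) rose in the libraries labelled si-Rsl24d1 and none fell, where 30.9% of all genes changed. Of them 9 passed the stricter rule (1.63% of all genes), and the list median was 0.68. Col3a1, a fibrillar collagen, rose by 2.05 ± 0.20 (adjusted p = 3.4e-07), Tnc, tenascin C, by 1.87 ± 0.10 (adjusted p = 7.3e-11) and Cdh11, the mesenchymal cadherin, by 1.66 ± 0.07 (adjusted p = 1.5e-11). Of 13 other mesenchymal and lateral plate factors tested (25 listed), 10 rose and none fell. Of these 13, Mef2c, Nkx2-5 and Sox9 passed the filter only through the labelled si-Rsl24d1 group itself. Among the 10 that passed without it 7 rose, led by Prrx1 (1.79 ± 0.09, adjusted p = 6.6e-11), Osr1 (1.17) and Gata6 (0.99). The labelled group with rescue still counted there, with log2 means of 1.85 for Prrx1 and 1.64 for Osr1. In si-CTL without rescue these genes stood at 0.54 and 0.97 at day 4 and at 0.10 and 0.02 at day 0. Their passing thus leaned on the labelled si-Rsl24d1 groups, and the filter without both groups was not computed. The count of 7 in 10 still holds Prrx1 and Osr1, so nothing is drawn from it. The siRNA contrast of day 4 with rescue had 8 of 22 effectors that rose, beside 5.87% of all genes. There 5 of 13 factors rose (4 of the 11 that passed the filter without its labelled si-Rsl24d1 group), and none of either list fell. The same limit holds for this count of factors, since the labelled group without rescue still counted in that filter.

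The upstream pathways moved less. In the same contrast of day 4 without rescue, where 30.9% of all genes changed, 11 of 18 BMP pathway genes rose and none fell, with none past the stricter rule. Of 19 TGF-beta and Notch genes 10 rose, among them the ligand gene Tgfb2 (1.22) and Ltbp1 (0.92), which encodes a binding protein of latent TGF-beta. Among dimer partners and inhibitors 1 of 3 E protein genes and 1 of 4 Id genes rose, but after scaling 3 Id genes fell and none rose. Of 11 corepressor genes 5 rose, 1 after scaling. Of 6 related bHLH and Snai family genes tested none passed.

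The epithelial genes that SNAI and ZEB proteins repress were split, with 4 of 22 that rose and 4 that fell at day 4 without rescue, none past the stricter rule and a median of 0.00 (3 and 8 after scaling). Cdh1 itself differed by 0.30 (adjusted p = 0.029). At day 0, where 30.4% of all genes changed, 6 of 22 epithelial genes rose and 6 fell, 5 of 22 effectors rose and 5 fell, and of 13 other factors 1 fell. Of 19 TGF-beta and Notch genes 10 rose at day 0 (9 of the 18 that passed the filter without the si-Rsl24d1 group) and none fell, with the Notch ligands Dll1 (2.29), Jag2 (1.22) and Jag1 (1.17) in the lead. Of 18 BMP genes 2 rose there, among them Bmp7 (1.28), and 1 fell, Bmp4 (−0.97). Of 6 related genes 2 rose, Snai3 (0.90) and Mesp2 (0.86), and 1 fell. Of 3 E protein genes 1 rose and 1 fell, of 4 Id genes none passed, and of 11 corepressor genes 5 fell.

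Under RA in si-CTL cells, where 60.9% of all genes changed in either direction, 16 of 22 effectors rose and 3 fell, with Acta2, smooth muscle actin, at 3.39 and Thy1 at −1.44. Of the other factors 10 of 13 rose. The epithelial list ran the other way, with 2 that rose and 11 that fell, among them Cdh1 (−1.37, adjusted p = 9.9e-10) and the splicing factors Esrp1 (−1.32) and Esrp2 (−1.32). After scaling these counts were 5 and 9. Id1 (−1.88) and Id3 (−1.16) fell, with 3 of 4 Id genes falling in all. Of 18 BMP genes 7 rose and 4 fell and of 19 TGF-beta and Notch genes 6 and 4, in both lists a share near that of all genes. Of 3 E protein genes 1 fell, of 6 related genes 1 rose and 2 fell, and of 11 corepressor genes 7 fell (6 after scaling).

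**Figure D4:**
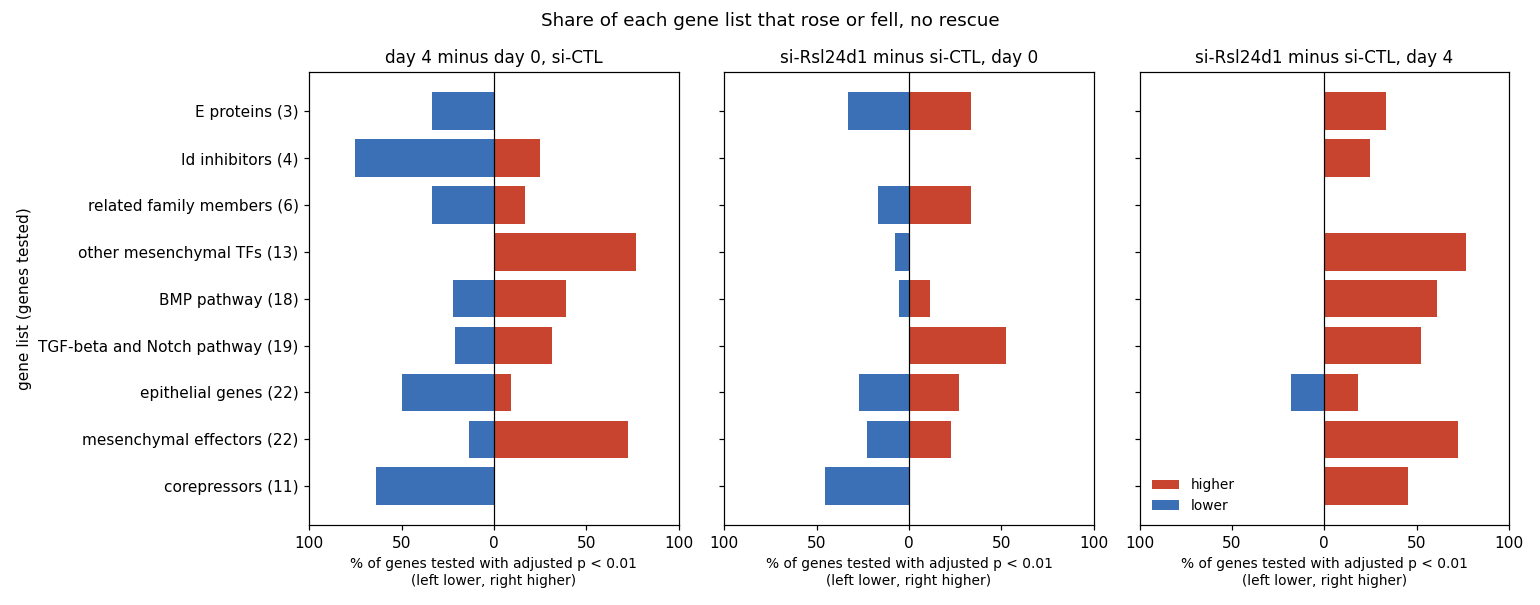
Percent of the tested genes of each list that rose (to the right) or fell (to the left) at a limma adjusted p under 0.01, under RA in si-CTL cells and with the siRNA at day 0 and day 4, all without rescue; the number tested stands beside each name. For the effectors the right bar is 16 of 22 genes under RA and with the siRNA at day 4, and for the epithelial list the left bar is 11 and 4 of 22.

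Markers of other cell types were read in the siRNA contrast of day 4 without rescue, where 30.9% of all genes changed; several lists moved with the members, and their part in that result was not tested. The mean log2(TPM + 1) over the fibroblast list lay between 2.72 and 2.78 in si-CTL and between 3.26 and 3.44 in the libraries labelled si-Rsl24d1, with 4 of 8 tested genes that rose and none that fell. For primitive and parietal endoderm it was 2.36 to 2.56 against 3.04 to 3.36, with 9 of 9 tested genes that rose (Lama1 1.12, Col4a1 1.10, Gata6 0.99). For trophoblast it was 1.39 to 1.51 against 1.88 to 1.97, with 6 of 7 that rose, led by Plac1 (2.01). Of its defining markers, Tpbpa was at 0 in every library of day 0, and Prl3d1 in every library of day 0 with rescue and of the labelled si-Rsl24d1 group with rescue at day 4. The neural crest list had 3 of 6 that rose (0.99 to 1.05 against 1.28 to 1.46), or 2 of 5 without Sox9, and the cardiac list 4 of 8 (1.67 to 1.68 against 1.88 to 2.06), or 3 of 7 without Nkx2-5, both genes that passed the filter only through that group. The cardiac genes were split: Actc1 differed by 1.94, while Myl4 (−0.41), Tnnt2 (−0.30) and Myl7 (−0.20) were lower. For Myl4 and Tnnt2 every labelled si-Rsl24d1 library lay below every control. The neural list had 2 of 6 (at most 1.55 against at least 1.67), a share near that of all genes. The pluripotent list, which marks the ESC state of the cell line, was at 6.77 to 6.85 against 6.83 to 7.04 at day 4, with 2 of 10 genes that rose and none that fell. At day 0 it was 7.19 to 7.31 with si-CTL and 6.64 to 6.72 with si-Rsl24d1, with 8 of 10 genes that fell and none that rose.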

How the data were processed

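RNA-seq was performed on 24 CGR8 libraries, 3 in each of 8 groups, and 0 columns of the table lacked a sample. The deposited values are log2(TPM + 1) for 54242 gene symbols, made by the authors. The submitters' processing notes name STAR 2.7.8a, Salmon 1.4.0 and a GRCh38 build, where the study's methods name a mouse genome. Labels and methods also differ on a poly-A or a stranded total-RNA kit, the medium, and 48 or 72 h between transfection and collection at day 0. The table holds mouse gene symbols, and coordinates given here are GRCm38. TPM holds no read depth, so no counting interval was computed and a value of 0 has no known floor.

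limma 3.58.1 in R 4.3.3 (empirical Bayes with a mean trend) was fitted to the deposited log2 values of all 8 group means for genes with a mean of at least 0.5. Benjamini-Hochberg adjustment ran over all 16447 genes, and 15 comparisons were made. The call rule was an adjusted p under 0.01 with a change over 1.8-fold, and adjusted p alone was added as a second rule after the values had been seen, as was 1 comparison (the siRNA and rescue interaction at day 4). Fold changes on this scale understate changes of low genes, so a change under the 1.8-fold limit may exceed 1.8-fold in TPM. Ratios of mean TPM are given only for siRNA differences of Twist1, Hand1 and Zeb2 without rescue. For the other members library TPM values are given. The fit was tested on simulated data.

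The members and lists were chosen with earlier results of these data known. Named genes are all members, Rsl24d1, up to 3 called genes with the largest rise and 3 with the largest fall in a list, and the 2 genes most correlated with each member. Cdh1, Myl4, Tnnt2 and Myl7 were named at day 4 after their values were seen. One gene that this rule would name is not reported here. Pseudocounts of 0.1 and 2, no filter, a filter of 1.5, median of ratios scaling, a fit of only the groups compared, a replicate block, and leaving out each library were tried; the filter was also computed without the first group of each comparison, chosen after the values were seen. Figures were drawn with matplotlib 3.10.9 in Python 3.11.15.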

Additional observations from a re-analysis of the deposited data

Results flagged for a closer look

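The siRNA difference of Zeb2 differed between days without rescue, by an interaction of 0.896 on the log2 scale (limma adjusted p = 0.0012). At day 0 the groups overlapped (difference 0.03) and at day 4 they did not (difference 0.93). In si-CTL cells mean Zeb2 went from 2.26 TPM at day 0 to 2.32 TPM at day 4 without rescue. With rescue it went from 1.54 to 3.33 TPM in si-CTL cells. Replicate 1 of the libraries labelled si-Rsl24d1 at day 4 (4.00 TPM) lay apart from the other 2 (6.07 and 6.13 TPM), and with 3 libraries a group this was not tested. Rsl24d1 itself was not lower in these day 4 libraries by the test, and the antisense gene Zeb2os had its highest group mean there, 0.50. The part of either in the Zeb2 value was not tested.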

How the results depend on the processing

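No called member reversed its direction under any alternative. Counts of members past both thresholds moved as follows, and stayed as they were where an alternative or comparison is not named. With a pseudocount of 0.1 they became 1 with the siRNA at day 0 with rescue, 5 with the siRNA at day 4, 1 at day 4 with rescue, 5 under RA in si-CTL, in si-CTL with rescue and in si-Rsl24d1 with rescue, and 1 in the siRNA and rescue interaction at day 4. With a pseudocount of 2 they became 0 with the siRNA at day 0, 2 at day 4, 1 under RA in si-CTL, 1 in si-CTL with rescue, 3 in si-Rsl24d1, 2 in si-Rsl24d1 with rescue, and 0 in the siRNA and day interaction. After scaling they became 2 with the siRNA at day 4, 1 at day 4 with rescue, 3 under RA in si-CTL, in si-CTL with rescue and in si-Rsl24d1 with rescue, and 0 in the siRNA and day interaction. With a filter of 1.5, which tests fewer members, RA had 1 in si-CTL, 3 in si-CTL with rescue, 4 in si-Rsl24d1 and 3 in si-Rsl24d1 with rescue. By adjusted p alone the counts were 4, 3, 6 and 2 for the siRNA at day 0, at day 0 with rescue, at day 4 and at day 4 with rescue, 1 and 3 for rescue in si-Rsl24d1 at day 0 and day 4, 5 and 6 under RA in si-CTL without and with rescue, 6 and 7 in si-Rsl24d1 without and with it, 4 in the siRNA and day interaction and 4 in the siRNA and rescue interaction at day 4. Leaving out one library gave 0 to 1 for the siRNA with rescue at day 0 and at day 4, 2 to 3 for the siRNA at day 4, 1 to 3 for RA in si-CTL (3 to 5 once rescue was added), 4 to 5 for RA in si-Rsl24d1 (3 to 4 once rescue was added), and 0 to 1 for the siRNA and day interaction and for the siRNA and rescue interaction at day 4; the libraries stand beside these results above. In those fits, of 972 member values 945 stayed on their side of both thresholds, 15 no longer passed and 12 came to pass.

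The replicate numbers do not pair the libraries: residuals of libraries with the same number correlated at −0.0173 on average over 84 pairs, 4 of them over 0.1, and 1 of 24 libraries was closest to one of its own number. A fit with the replicate block left the count of members past both thresholds at 3 with the siRNA at day 4, and all 135 member values on their side. The unfiltered fit and the fit of only the groups compared did the same for these values; without the filter Hand2 made the count under RA in si-Rsl24d1 6. Over all genes, the count past both thresholds with the siRNA at day 4 was 268, and it was 601 with a pseudocount of 0.1, 158 with 2 and 168 after scaling. With the siRNA at day 0 it was 687, and 1224 with a pseudocount of 0.1. Read depth is unknown, the day 4 siRNA labels have no check in Rsl24d1 mRNA, and 3 libraries a group limit every exact test to p = 0.1.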
